A study of Homo sapiens with 6 samples.

Results

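Polycomb genes and the genes that remove the mark written by Polycomb repressive complex 2 were followed in Kelly cells, an established line of human neuroblastoma. By the labels the line is MYCN-amplified and its genotype is WT. The set was chosen by name and holds 10 of the 19923 genes in the count tables. It comprises 5 genes of PRC2 (EZH1, EZH2, EED, SUZ12 and JARID2), 3 of PRC1 (RNF2, BMI1 and CBX2) and the 2 H3K27 demethylases KDM6A and KDM6B. Of 6 libraries, 3 came from cells 72 hours after transient transfection of control siRNA (siControl) and 3 from cells given METTL3 siRNA for the same time (siMETTL3). METTL3 is the catalytic subunit of the enzyme that writes N6-methyladenosine in mRNA. Poly(A) RNA was sequenced. The file headers name the alignments as input and the METTL3 siRNA as siMettl3B, with no other METTL3 siRNA among these libraries. The sequences of the siRNAs are not given in the sources used here, all libraries come from a single cell line, and nothing in the labels says that the replicates were separate cultures, so that p-values measure the spread between these libraries, which may be technical.

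PRC2 trimethylates lysine 27 of histone H3 through its catalytic subunits EZH2 or EZH1, with EED and SUZ12 as obligate partners and JARID2 as an accessory subunit that helps to bring the complex to chromatin. PRC1 contains the ubiquitin ligase RNF2 (RING1B) with a PCGF partner such as BMI1, and its canonical forms bind the trimethyl mark through a CBX protein such as CBX2. KDM6A (UTX) and KDM6B (JMJD3) remove the mark. In neuroblastoma, EZH2 is known as a repressor of differentiation genes.

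The siControl libraries held 15430000 to 21526555 counts and the siMETTL3 libraries 20374737 to 21565013. The control libraries differed more among themselves (chi-square per degree of freedom 5.74 to 16.9) than the siMETTL3 libraries (3.11 to 3.84), and the 2 largest of these values involved siControl replicate 3, the shallowest library. METTL3 itself was measured at 53.5, 52.8 and 56.2 CPM (the count scaled by the library's total and TMM factor) in siControl and at 32.99, 31.8 and 34.3 CPM in siMETTL3. It fell by 0.71 on the log2 scale (SE 0.070, edgeR FDR 4.68e-06), and 7.90% of its span overlaps the gene TOX4 on the opposite strand. All 12 noradrenergic markers of the line were expressed highly enough to be tested, with a summed level of 4429 to 4831 CPM in siControl and 5993 to 6409 CPM in siMETTL3. Of these markers 7 rose and 2 fell, where 18.6% of all tested genes rose and 19.2% fell. The 12 markers of mesenchymal cells summed to 191 to 195 CPM in siControl and 178 to 190 CPM in siMETTL3. Among the 9 tested, 3 were called higher and 1 lower, beside 37.8% of all tested genes called in either direction. The 4 Schwann or glial markers in the tables summed to 5.38 to 5.81 CPM and 6.52 to 8.65 CPM, and the 5 leukocyte markers to at most 0.603 CPM and 0.682 CPM. No marker was at 0 counts in all libraries, and the part of these shifts in the results below was not tested.

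The genes of the set changed in both directions and by modest amounts. KDM6B, JARID2 and SUZ12 rose, BMI1 and CBX2 fell, and EZH1, EZH2, EED, RNF2 and KDM6A did not pass the test. All 10 genes passed the filter on low counts, and none changed 2-fold. Calls were made at a false discovery rate (FDR) below 0.05, by the quasi-likelihood test of edgeR. With 5 of 10 genes called, the share stood at 50.0%, beside 37.8% of all 15311 tested genes. The 3 higher calls stand beside 18.6% of all genes and the 2 lower calls beside 19.2%, so that the share of called genes was not far from that of the whole transcriptome. In 7 of the 10 genes the values of the groups did not overlap, against 49.9% of all tested genes. They were higher in siMETTL3 in 4 (24.8% of all genes) and lower in 3 (25.1%). The median log2 fold change of the set was 0.0998, against -0.0021 for all tested genes. In bulk RNA of this kind, a change in the number of cells that express a gene and a change in RNA per cell cannot be told apart.

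**Figure D1:**
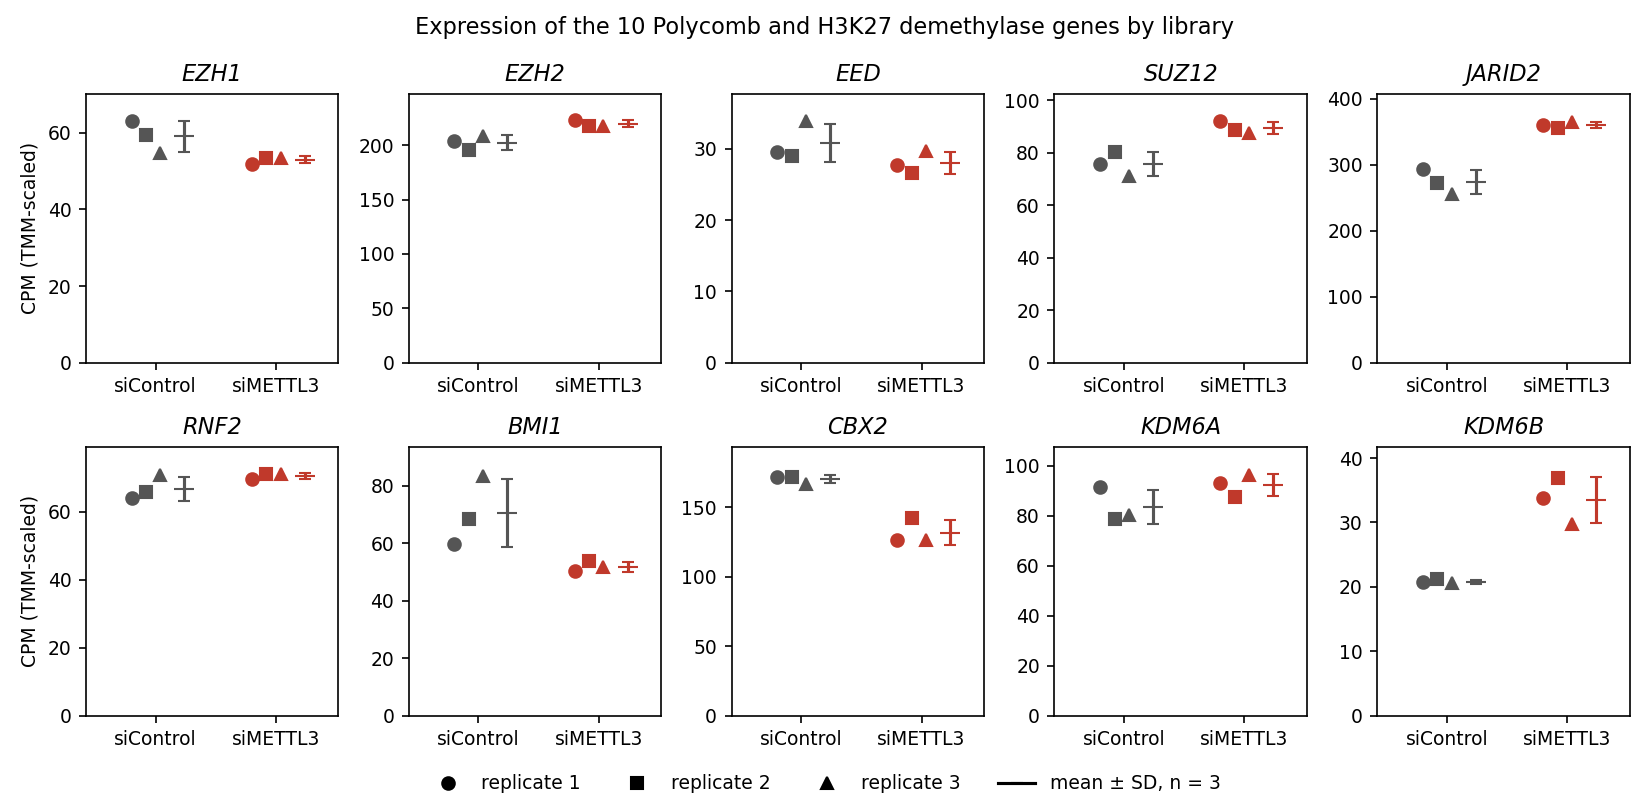
Expression of each gene in CPM (vertical axis from 0, after TMM scaling) in the 3 siControl and 3 siMETTL3 libraries; symbols are replicates and bars are mean ± SD. The siMETTL3 values of KDM6B, JARID2, SUZ12 and EZH2 lie above all siControl values, and those of BMI1, CBX2 and EZH1 lie below them.

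Reference promoters of the genes that passed the test are shown for 3 genes that rose and 1 that fell, since these starts differ in base composition. Windows of 250 bases that end just before a RefSeq transcription start (build GRCh38.p14) were found for 9 of the 10 genes, all but CBX2. Where a gene had 2 starts listed, that nearest to the start of the counted span was taken. Capitals mark matches, on either strand, to an E-box (CACGTG), an E2F element (TTTCCCGC or TTTGGCGC), a CCAAT box (CCAAT) or a GC box (GGGCGG). The 4 windows read 5′ to 3′:
JARID2 (chr6:15245819-15246068, plus strand): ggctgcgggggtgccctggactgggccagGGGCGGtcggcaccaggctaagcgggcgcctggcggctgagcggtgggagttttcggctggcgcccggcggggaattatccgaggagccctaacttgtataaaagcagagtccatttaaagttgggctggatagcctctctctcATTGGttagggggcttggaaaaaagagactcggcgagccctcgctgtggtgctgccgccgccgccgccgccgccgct
SUZ12 (chr17:31936757-31937006, plus strand): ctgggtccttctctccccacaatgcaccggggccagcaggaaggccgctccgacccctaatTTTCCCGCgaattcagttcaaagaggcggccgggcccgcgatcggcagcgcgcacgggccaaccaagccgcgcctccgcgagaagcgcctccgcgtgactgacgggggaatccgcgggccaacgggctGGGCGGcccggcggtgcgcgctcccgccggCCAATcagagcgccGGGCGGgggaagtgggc
KDM6B (chr17:7839667-7839916, plus strand): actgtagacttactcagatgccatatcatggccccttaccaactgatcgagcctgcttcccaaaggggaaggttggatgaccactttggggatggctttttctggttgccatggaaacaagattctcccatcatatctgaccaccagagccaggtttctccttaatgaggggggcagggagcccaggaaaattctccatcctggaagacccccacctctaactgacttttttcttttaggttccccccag
BMI1 (chr10:22320849-22321098, plus strand): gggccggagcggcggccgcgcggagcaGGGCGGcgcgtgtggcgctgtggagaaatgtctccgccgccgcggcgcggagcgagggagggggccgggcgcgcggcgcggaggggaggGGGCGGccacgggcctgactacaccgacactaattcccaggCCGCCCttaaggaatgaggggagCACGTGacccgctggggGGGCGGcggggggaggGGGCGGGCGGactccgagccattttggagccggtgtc

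GC content was 65.6% in the JARID2 window, 72.8% in SUZ12 and 76.8% in BMI1, above the median of 58.0% over 35116 windows of the same length. The KDM6B window was below it, at 50.4% GC, and held 1 CpG against a median of 11. JARID2, KDM6B and BMI1 each had 2 starts listed, and the windows at their other starts are not described here. BMI1 held 6 GC boxes, of which the last 2 overlap each other, and 1 E-box, a sequence bound by MYC family proteins. SUZ12 held 1 E2F element, 1 CCAAT box and 2 GC boxes. JARID2 held 1 CCAAT box and 1 GC box, and KDM6B none of the 4 motifs. Over the 9 windows, an E-box was found in 2 (BMI1 and KDM6A), an E2F element in 1, a CCAAT box in 5 and a GC box in 7. Among all windows the shares were 6.34%, 1.93%, 32.01% and 42.6%. These matches describe the letters of the reference and show no binding.

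Levels of different genes were compared per kilobase of canonical transcript. EZH2 stood highest in siControl, at 76.3 ± 2.47 CPM per kb (SD, n = 3), followed by JARID2 at 45.6 ± 3.10 and CBX2 at 36.8 ± 0.654. These 3 were separated from each other and from the next gene in every library. BMI1 (19.9 ± 3.36) and RNF2 (19.6 ± 1.03) overlapped each other. SUZ12 (16.9 ± 0.995), EED (14.8 ± 1.27), KDM6A (13.7 ± 1.13) and EZH1 (12.8 ± 0.893 CPM per kb) formed a run in which each gene overlapped the next. KDM6B was lowest, at 3.09 ± 0.0461 CPM per kb, and rose to 4.98 ± 0.535 in siMETTL3. In siMETTL3 the first 3 places and the last 2 were held by the same genes as in siControl, while BMI1 moved from the fourth to the seventh. The order depends on the length used. Per kilobase of the counted span, which includes introns, CBX2 (17.3 ± 0.308 CPM per kb) and BMI1 (6.78 ± 1.15) came first and KDM6A (0.348 ± 0.0288) last.

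**Figure D2:**
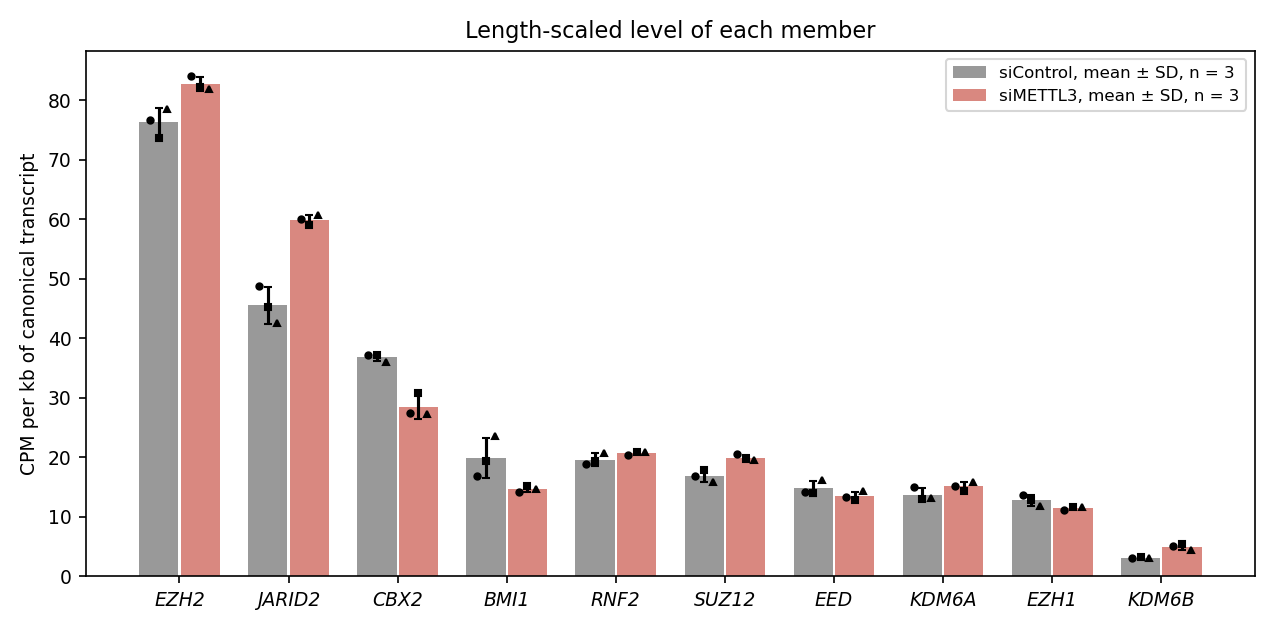
Level of each gene in CPM per kb of canonical transcript (vertical axis from 0), with siControl in grey and siMETTL3 in red; bars are means, error bars SD over 3 libraries and points the libraries. EZH2, JARID2 and CBX2 lead in both groups and KDM6B is lowest in both.

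Among the PRC2 genes, JARID2 showed the clearest change. JARID2 (chromosome 6, 15246069 to 15522042, plus strand) lacks demethylase activity although it belongs to the Jumonji family. It was measured at 293, 272 and 256 CPM in siControl and at 360, 355 and 364 CPM in siMETTL3. All siMETTL3 values were above all siControl values, and the siMETTL3 libraries differed less among themselves. JARID2 rose by 0.39 on the log2 scale (SE 0.060, 95% interval 0.27 to 0.52, edgeR FDR 0.000195), which is a rise of 31.4%. Without siControl replicate 3 it was 0.35. Among the other fits with all libraries, the log2 fold change of JARID2 went as low as 0.26, with the call kept.

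SUZ12 (chromosome 17, 31937007 to 32001038, plus strand), a core subunit needed for the stability of the complex, was measured at 75.8, 80.2 and 71.3 CPM in siControl. Its siMETTL3 values were 92.0, 88.5 and 87.6 CPM, again without overlap. The log2 fold change was 0.24 (SE 0.062, 95% interval 0.10 to 0.37, edgeR FDR 0.00846). Without siMETTL3 replicate 1 the FDR was 0.0525 (log2 fold change 0.22), and with an offset for intron length it was 0.125 (log2 fold change 0.12). Over all alternatives the FDR of SUZ12 ranged from 0.000190 to 0.125.

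EZH2, the main catalytic subunit in dividing cells (chromosome 7, 148807383 to 148884321, minus strand), had 204, 195 and 208 CPM in siControl. It had 223, 218 and 218 CPM in siMETTL3, so that the groups did not overlap although the difference was small. Its log2 fold change of 0.12 (SE 0.054, 95% interval 0.0028 to 0.23) did not pass the threshold over all genes (edgeR FDR 0.09998). An offset for the length of introns brought it to -0.0037 (edgeR FDR 0.966), and it passed the threshold without siControl replicate 3 (log2 fold change 0.14, FDR 0.0290). The upper end of the interval is a rise of 17.5%.

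EZH1, the paralog with weaker catalytic activity that prevails in resting cells (chromosome 17, 42700275 to 42745049, minus strand), had an estimate on the other side of 0. It was measured at 63.0, 59.5 and 54.8 CPM in siControl and at 51.9, 53.6 and 53.5 CPM in siMETTL3. The groups did not overlap, but siControl replicate 3 lay close to the siMETTL3 values. The log2 fold change of -0.16 (SE 0.068, 95% interval -0.31 to -0.013) was not past the threshold (edgeR FDR 0.0818). Without siControl replicate 3 it was -0.21 (FDR 0.0128), and over all alternatives the FDR of EZH1 ranged from 0.00116 to 0.240.

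EED, the subunit that reads the trimethyl mark (chromosome 11, 86244753 to 86278813, plus strand), gave 29.6, 29.1 and 33.9 CPM in siControl. It gave 27.7, 26.6 and 29.8 CPM in siMETTL3, with overlapping groups. The log2 fold change was -0.14 (95% interval -0.32 to 0.052, edgeR FDR 0.245), so that the interval runs down to a change of -20.1%. Without siControl replicate 3 the estimate was -0.068.

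**Figure D3:**
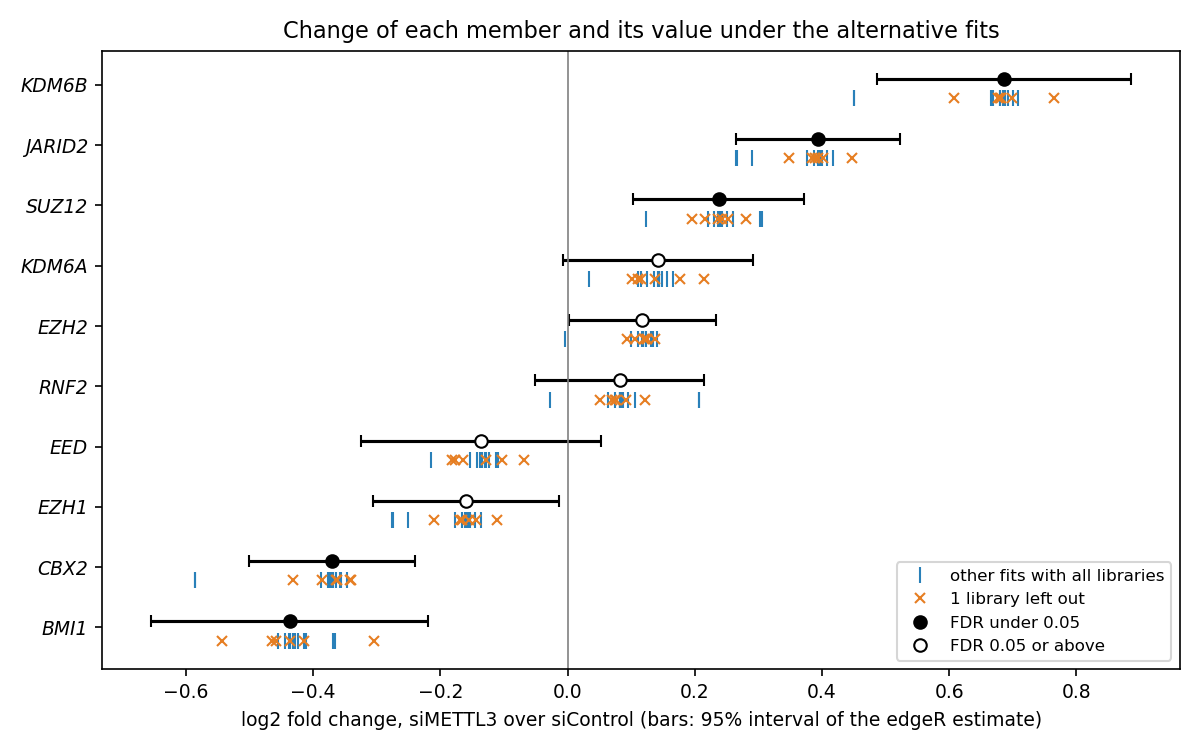
Log2 fold change of each gene (horizontal axis, siMETTL3 over siControl) with its 95% interval, filled where the FDR is under 0.05; blue ticks and orange crosses below each point are the other fits. KDM6B (0.69) and JARID2 (0.39) lie to the right of 0 and BMI1 (-0.44) and CBX2 (-0.37) to the left in every fit, while a fit of EZH2 and a fit of RNF2 fall on the other side of 0.

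In PRC1 the catalytic subunit and its partners differed. RNF2 (chromosome 1, 185045526 to 185102603, plus strand) was measured at 64.0, 65.8 and 70.7 CPM in siControl and at 69.6, 71.1 and 71.2 CPM in siMETTL3. The groups overlapped through siControl replicate 3, and the log2 fold change of 0.082 (95% interval -0.051 to 0.21) did not pass the test (edgeR FDR 0.327). It was -0.028 with an offset for intron length and 0.21 with an offset for transcript length and GC content, the latter past the threshold (FDR 0.00476, with values of up to 0.767 among the other fits).

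CBX2, a chromodomain subunit of canonical PRC1 (chromosome 17, 79778148 to 79787983, plus strand), fell. Its values were 172, 172 and 167 CPM in siControl and 127, 142 and 126 CPM in siMETTL3, with the highest siMETTL3 value well under the lowest siControl value. The log2 fold change was -0.37 (SE 0.061, 95% interval -0.50 to -0.24, edgeR FDR 0.000346), a change of -22.6%. With the offset for transcript length and GC content the estimate was larger (-0.59).

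BMI1, the PCGF subunit that stimulates the ligase (chromosome 10, 22321099 to 22331484, plus strand), varied most of the set in siControl relative to its mean, at 59.8, 68.3 and 83.3 CPM. The siMETTL3 values of 50.2, 53.6 and 51.8 CPM were close together and below all control values. BMI1 fell by 0.44 on the log2 scale (SE 0.10, edgeR FDR 0.00456, 95% interval -0.65 to -0.22), and by 0.30 without siControl replicate 3, its highest library. The BMI1 count cannot be assigned to BMI1 alone. Of its counted span 81.3% overlaps the readthrough gene COMMD3-BMI1 on the same strand, and a read over both genes was counted for each. COMMD3-BMI1 fell by 0.44 (edgeR FDR 0.00444) and its neighbour COMMD3 by 0.42 (edgeR FDR 0.00902). No other gene of the set overlaps another gene of the tables.

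Of the demethylases, KDM6B rose and KDM6A did not pass the test. KDM6B (chromosome 17, 7839904 to 7854796, plus strand), an inducible demethylase, had the largest change of the set. It was measured at 20.7, 21.2 and 20.6 CPM in siControl, the tightest values of the set relative to their mean, and at 33.8, 36.9 and 29.8 CPM in siMETTL3. The lowest siMETTL3 value was well above all control values. KDM6B rose by 0.69 on the log2 scale (SE 0.093, 95% interval 0.49 to 0.89, edgeR FDR 7.54e-05), a rise of 60.9%. Of all tested genes, 91.3% had a smaller absolute change. With the offset for transcript length and GC content the estimate was 0.45 and still past the threshold (FDR 0.000377).

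KDM6A, the X-linked demethylase that works within the KMT2C and KMT2D complexes (chromosome X, 44873177 to 45112602, plus strand), was measured at 91.3, 78.6 and 80.3 CPM in siControl. Its siMETTL3 values of 92.9, 87.4 and 96.3 CPM overlapped with siControl replicate 1. The log2 fold change of 0.14 (95% interval -0.0068 to 0.29) was not past the threshold (edgeR FDR 0.125). Without siControl replicate 1 it was 0.21 (FDR 0.0129), and with the offset for intron length 0.033 (FDR 0.743).

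Ratios of the paralogs within a library do not depend on the scaling. The log2 ratio of EZH2 to EZH1 counts was 1.69, 1.72 and 1.93 in siControl and 2.105, 2.03 and 2.02 in siMETTL3. All siMETTL3 ratios were higher, by 0.27 on average, and the exact two-sided permutation test gave p = 0.1, the smallest that 3 against 3 libraries allow. Per kilobase of transcript, EZH2 stood 6.01 ± 0.555 times as high as EZH1 in siControl and 7.24 ± 0.236 times in siMETTL3 (SD, n = 3). The size of this ratio depends on the length used. Per kilobase of the counted span, EZH2 and EZH1 had 2.63 and 1.32 CPM per kb in siControl. In siMETTL3 they had 2.86 and 1.18 CPM per kb of the counted span. The log2 ratio of KDM6A to KDM6B was 2.14, 1.89 and 1.96 in siControl and 1.46, 1.24 and 1.69 in siMETTL3. All siMETTL3 ratios were lower, with a difference of -0.53 and the same exact p = 0.1. Adjusted over the 2 ratios, both p-values stayed at 0.1, and this exact test cannot give a smaller p with these group sizes.

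**Figure D4:**
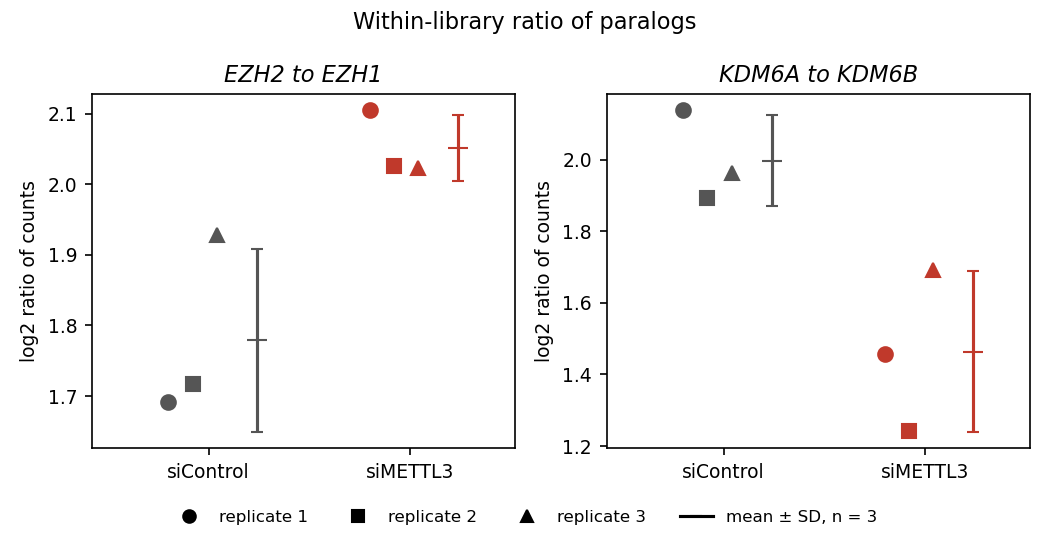
Log2 ratio of counts within each library (vertical axes, not from 0) for EZH2 to EZH1 and KDM6A to KDM6B; symbols are replicates and bars mean ± SD over 3 libraries. The EZH2 to EZH1 ratio is 2.02 to 2.105 in siMETTL3 against 1.69 to 1.93 in siControl, and the KDM6A to KDM6B ratio is 1.24 to 1.69 against 1.89 to 2.14.

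Few further PRC2 genes were called. Of 14 tested PRC2 core and accessory genes, 3 rose and 1 fell (median log2 fold change -0.034). The share called was 28.6%, against 37.8% of all genes. AEBP2, which works with JARID2 in the PRC2.2 form, was the third riser, from 110 ± 3.29 CPM to 126 ± 0.262 CPM in siMETTL3 (log2 fold change 0.19, edgeR FDR 0.0138). RBBP7, a histone-binding subunit, fell by 0.20 on the log2 scale (edgeR FDR 0.0348), from 123 ± 11.9 to 107 ± 2.58 CPM, and its span overlaps another gene. Both calls were lost in several fits, with FDR values up to 0.355 for AEBP2 and 0.127 for RBBP7. The log2 fold change was 0.067 for AEBP2 with the offset for intron length and -0.12 for RBBP7 without siControl replicate 3. None of the 6 accessory genes of the alternative PRC2.1 form (PHF1, MTF2, PHF19, EPOP, LCOR and LCORL) passed the test, with log2 fold changes from -0.28 to 0.27. EZHIP, an inhibitor of PRC2, had at most 2 counts in a library and was not tested. Without siMETTL3 replicate 1 the number of called PRC2 genes was 1 and without siMETTL3 replicate 2 it was 2.

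PRC1 subunits changed in both directions, with 10 of 35 higher and 5 lower (median log2 fold change 0.082). In this list 42.9% were called, against 37.8% of all genes. The largest rises were in BCORL1 and BCOR of the noncanonical PRC1.1 form. BCORL1 rose from 8.74 ± 1.52 CPM in siControl to 18.02 ± 0.806 CPM (1.04 on the log2 scale, edgeR FDR 3.53e-05) and its paralog BCOR from 140 ± 10.3 to 196 ± 9.76 CPM (log2 fold change 0.48). BCOR stood at 0.29 with the GC and length offset. PCGF1, the PCGF partner of the same form, fell by 0.28 (edgeR FDR 0.0323, up to 0.149 in other fits). KDM2B (0.086, edgeR FDR 0.353) and SKP1 (0.098, edgeR FDR 0.203) of this form did not pass the test, while USP7 rose by 0.33 (edgeR FDR 0.0022). SCML2, a Sex comb protein, rose by 0.40, and L3MBTL2 of the PRC1.6 form, whose span overlaps another gene, fell by 0.27 (by 0.42 with the GC and length offset). Among CBX genes of PRC1, CBX2 and CBX8 were called and lower. CBX8 stood at 26.3 ± 0.835 CPM in siControl and 20.8 ± 1.11 CPM in siMETTL3 (log2 fold change -0.34, edgeR FDR 0.00723, -0.52 with the GC and length offset). CBX6 and CBX7 had log2 fold changes of -0.12 and -0.22 that did not pass. Of the 6 PCGF genes, PCGF5 was higher (0.37, edgeR FDR 0.00951), BMI1 and PCGF1 were lower, and 3 did not pass. Neither RING1, the paralog of RNF2, nor any of the 3 PHC genes passed the test.

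The H3K27 demethylases were listed with the KMT2C and KMT2D complexes, whose subunits are mostly not enzymes and of which WDR5 is also in the PRC1 list. Of these 11 genes 6 rose and 1 fell (63.6% called, median log2 fold change 0.16), where 18.6% of all genes rose and 19.2% fell. KMT2D rose from 71.1 ± 3.56 CPM in siControl to 93.4 ± 1.57 CPM (0.39 on the log2 scale, edgeR FDR 0.000208) and KMT2C from 363 ± 12.1 to 449 ± 14.7 CPM (0.31). Both encode methyltransferases of lysine 4 of histone H3. NCOA6, a further subunit whose span overlaps another gene, rose by 0.42, and PAGR1, whose span also overlaps, fell by 0.33 (edgeR FDR 0.00478). The GC and length offset gave 0.18 for KMT2D, 0.28 for NCOA6, -0.50 for PAGR1 and 0.23 for EP300, all still called. EP300, which acetylates lysine 27 of histone H3, had 134 ± 6.23 CPM in siControl and rose to 173 ± 5.98 CPM (0.37 on the log2 scale, edgeR FDR 0.000240). Its paralog CREBBP had a log2 fold change of 0.22 (edgeR FDR 0.0355), which was not past the threshold in 9 of 19 other fits and stood at 0.0034 with the offset for transcript length and GC content.

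The list of H2A deubiquitinases, which remove the mark of PRC1, also holds partners of the deubiquitinase BAP1. Of its 11 genes 4 rose and 2 fell (median 0.12). The deubiquitinases BAP1 (log2 fold change -0.12, edgeR FDR 0.143) and USP16 (0.080, edgeR FDR 0.372) did not pass the test. Calls made up 54.5% of this list, against 37.8% of all genes. OGT, the O-GlcNAc transferase bound to BAP1, had 340 ± 5.29 CPM in siControl and 233 ± 11.8 CPM in siMETTL3 (log2 fold change -0.54, edgeR FDR 7.97e-06). ASXL1, a BAP1 cofactor, rose by 0.36, FOXK1 by 0.41 and FOXK2, whose span overlaps another gene, by 0.28, while ASXL3 fell by 0.27 (edgeR FDR 0.0321, up to 0.161 in other fits). FOXK2 was not past the threshold in 3 other fits (FDR up to 0.173). The GC and length offset gave 0.17 for ASXL1 and for FOXK1 and 0.086 for FOXK2. Of 5 H3K36 methyltransferases, ASH1L (0.36) and SETD2 (0.23) rose and 3 did not pass (median 0.078). The called share of 40.0% stands beside 37.8% of all genes. SETD2 was not past the threshold with the offset for intron length (log2 fold change 0.10, FDR 0.171).

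SWI/SNF complexes, which evict Polycomb from chromatin, had 5 of 28 subunits higher and 6 lower (median 0.018). The called share of 39.3% stands beside 37.8% of all genes. DPF3, a subunit of the neuronal complex, rose from 9.80 ± 1.04 CPM to 30.2 ± 1.97 CPM in siMETTL3, by 1.62 on the log2 scale (SE 0.11, edgeR FDR 1.17e-07). BICRA rose by 0.70 and ARID1A by 0.36. SMARCD2 fell by 0.47, and ACTL6A and PBRM1, whose spans overlap other genes, fell by 0.44 and 0.28. ARID1A had a log2 fold change of 0.12 and an FDR of 0.0506 in a fit with the GC and length offset and the replicate block.

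Most genes reported as repressed by EZH2 in neuroblastoma rose. In that list, which also holds the INK4 genes CDKN2A and CDKN2B, 5 of 6 tested genes rose (83.3% called, median log2 fold change 0.52). Over all genes, 37.8% were called and 18.6% rose. The list is short and was chosen with earlier results of these data known. EZH2 itself did not pass the test, and a link of these rises to EZH2 was not tested. RUNX3, a transcription factor gene, rose from 10.2 ± 1.30 CPM in siControl to 23.2 ± 0.875 CPM (1.17 on the log2 scale, edgeR FDR 3.20e-06). NGFR, which encodes the low-affinity neurotrophin receptor, rose from the low level of 1.82 ± 0.162 to 4.10 ± 0.289 CPM (1.18, edgeR FDR 0.000614). CASZ1 and CLU had log2 fold changes of 0.50 and 0.30 (edgeR FDR 0.0243 and 0.0369), with FDR values of up to 0.0968 and 0.201 in other fits. CASZ1 stood at 0.26 with the GC and length offset and CLU at 0.20 without siMETTL3 replicate 2. Without siControl replicate 2 or without siMETTL3 replicate 2, 3 genes of the list were called. CDKN2A, whose span overlaps another gene, went from 5.12 ± 1.42 to 3.53 ± 0.138 CPM without passing the test (log2 fold change -0.52, edgeR FDR 0.0694, and -0.33 without siControl replicate 3). CDKN2B had 2 to 14 counts and was not tested.

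Proliferation genes were followed because EZH2 expression is tied to the cell cycle. Of 35 proliferation genes, 20 fell, 5 rose and 10 did not pass the test, where 19.2% of all genes fell and 18.6% rose. In the list 71.4% were called, against 37.8% of all genes, with a median log2 fold change of -0.22. The summed level of the 35 genes went from 5308 to 5450 CPM in siControl to 4561 to 4648 CPM in siMETTL3. All 6 MCM genes, which encode the replicative helicase, fell, with MCM4 at -0.55 and MCM7, whose span overlaps another gene, at -0.50. PCNA fell by 0.64 (edgeR FDR 6.16e-06). MKI67 rose by 0.35, and FOXM1, whose span overlaps another gene, and TPX2 had 0.28 and 0.19, with FDR values of up to 0.0629 and 0.344 in other fits. Their lowest log2 fold changes were 0.12 for FOXM1, with the GC and length offset, and 0.079 for TPX2, with the offset for intron length. Without siControl replicate 2, or without siMETTL3 replicate 1, 15 genes of the list were called. The part of this shift in the changes of CBX2, BMI1 or EZH2 was not tested.

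**Figure D5:**
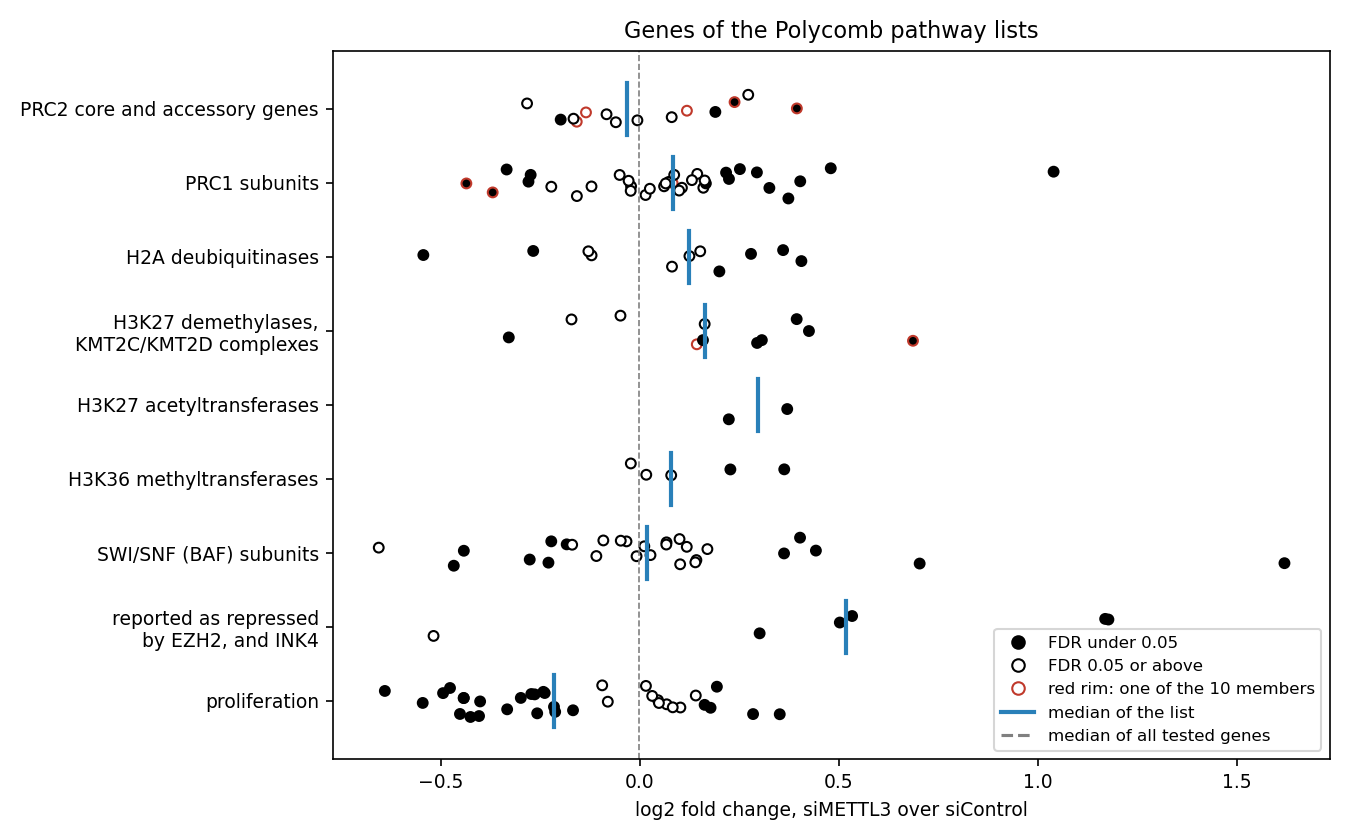
Log2 fold change (horizontal axis, siMETTL3 over siControl) of every tested gene of each list, filled where the FDR is under 0.05 and rimmed in red for the 10 genes of the set; blue bars are list medians and the dashed line the median of all tested genes. The list of genes reported as repressed by EZH2 has a median of 0.52, the proliferation list of -0.22, and DPF3 lies farthest to the right at 1.62.

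Position and transcript features differed among the called genes. Of the 10 genes 4 lie on chromosome 17, of which SUZ12 and KDM6B rose, CBX2 fell and EZH1 did not pass. Counted spans ranged from 9836 bases (CBX2) to 275974 bases (JARID2). The core m6A sequence GGACT occurred 9 times in the canonical CBX2 transcript (1.94 per kb) and 7 times in KDM6B (1.04 per kb). JARID2 held 4 (0.666 per kb), BMI1 2 (0.565 per kb) and SUZ12 none. EZH1 held 7, KDM6A 5, EZH2 3, RNF2 2 and EED none. The median over 14591 tested genes was 0.929 per kb, and 8.71% of them held no GGACT. Methylation of these sites was not measured here.

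By the pattern over all 6 libraries, the genes closest to JARID2 among 11764 genes with a mean log2 CPM of at least 3 were SLC45A3, BAG3 and BLACAT1 (Pearson r = 0.9998, 0.999 and 0.999 on log2 CPM). CBX2 was closest to KAT2A, LRRC45 and DDX49 (r = 0.997, 0.996 and 0.995). KDM6B was closest to MAGED1, EP400 and MKNK1 (r = 0.999, 0.996 and 0.995). The libraries of a group share their treatment, so these values include the difference between the groups. As many as 1019 genes had r above 0.95 with JARID2, 446 with CBX2 and 447 with KDM6B.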

How the data were processed

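The authors deposited raw read counts per gene, 1 table per library, made with featureCounts 1.5.3 on a GENCODE release 33 annotation, per the file headers. HISAT2 2.1.0 and Trimmomatic 0.36 are listed in the submitters' processing notes. The counted feature was the whole gene span, introns included, without a strand option, and reads over several genes were counted for each, per the file headers. Of the 19923 genes, 33.1% overlap another. Coordinates are those of the tables (GRCh38). All 18999 spans compared overlapped the span of that symbol in GENCODE release 44, whose canonical transcripts gave lengths and introns.

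Genes were filtered with filterByExpr, scaled by TMM and tested with edgeR 4.0.16 (R 4.3.3, robust quasi-likelihood F-test, all 6 libraries, no covariate). FDR values are Benjamini-Hochberg values over all 15311 genes, threshold 0.05. Intervals are 95%, not adjusted over genes, and SE is the absolute log2 fold change over the square root of F. In a check on simulated data the fit found most changed genes, with a share of false calls somewhat above the FDR threshold. Alternatives were other scalings and filters, DESeq2 1.42.0, limma-voom 3.58.1, a replicate block, offsets, and each library left out. Ratios used counts plus 0.5.

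The members and lists were chosen with earlier results of these data known. Named genes were all members, METTL3, up to 3 called genes per list and direction with the smallest FDR, all genes of the H3K27 acetyltransferase and EZH2-repressed lists, and the 3 genes most correlated with the member of smallest FDR in each role. The CBX, PCGF, PHC, RING1, MCM and PRC2.1 genes were grouped, and COMMD3 and COMMD3-BMI1 named, after values were seen. Some genes that the rule names are not reported here.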

Additional observations from a re-analysis of the deposited data

How the results depend on the processing

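KDM6B, JARID2, BMI1 and CBX2 were called in the same direction in all 19 other fits, of which the fit on genes without overlaps kept BMI1 in spite of its overlap, so that BMI1 was not tested without the shared reads. With each library left out in turn, log2 fold changes ranged from 0.61 to 0.76 for KDM6B, 0.35 to 0.45 for JARID2, 0.20 to 0.28 for SUZ12, -0.54 to -0.30 for BMI1 and -0.43 to -0.34 for CBX2. The same ranges were 0.093 to 0.14 for EZH2, -0.21 to -0.11 for EZH1, -0.18 to -0.068 for EED, 0.051 to 0.12 for RNF2, 0.10 to 0.21 for KDM6A and -0.74 to -0.69 for METTL3. Between 2 and 4 genes of the set were then called higher and 2 to 3 lower.

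With the offset for transcript length and GC content, EZH1 (-0.28), EZH2 (0.13) and RNF2 (0.21) passed the threshold, making 5 genes higher. With the replicate block added they did so at -0.27, 0.13 and 0.21, again with 5 higher. EZH2 also passed with total count scaling (0.14). With the offset for intron length, SUZ12 did not pass the threshold (0.12), EZH1 did (-0.25), and EZH2 (-0.0037) and RNF2 (-0.028) changed sign. That offset also lowered the share of higher genes among all calls to 37.5%, from 49.2%. The cause of these shifts was not tested.

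Over all genes, 1854 were higher and 1899 lower on genes without overlaps, where fewer were tested, against 2849 and 2937. Leaving out a library gave 2091 to 3178 higher and 2119 to 3216 lower. The list counts were left as above by the scalings and filters, within 1.5 times. Leaving out a library, an alternative added after the data were seen, gave 1 to 6 called PRC2 genes, 11 to 18 PRC1, 4 to 6 deubiquitinase, 6 to 10 demethylase complex, 1 to 2 acetyltransferase, 2 to 3 H3K36, 8 to 12 SWI/SNF, 3 to 6 EZH2-repressed and 15 to 26 proliferation genes. The difference in log2 ratio went from 0.23 to 0.35 for EZH2 to EZH1 and from -0.65 to -0.42 for KDM6A to KDM6B. Of 234 values of the 39 other named genes without a library, 31 lost the call of the main fit and 1 gained a call. Of their other 496 values, 19 lost the call and 2 gained one. Estimates could shrink while the call was kept, as in KMT2D, which went as low as 0.18. None changed sign.

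The correlation of deviations was 0.040, 0.049 and 0.067 between libraries of the same replicate number and -0.064 to 0.026 otherwise. These values were small, but each library correlated best with its own number. Whether the replicate numbers mark pairs was not tested, and the main fit used no block. With the replicate block, 6166 genes were called, 5733 of them among the 5786, and no call of the set changed (KDM6B 0.68, SUZ12 0.24).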
